A study of Mus musculus with 32 samples.

Results

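The response to the PPARγ agonist rosiglitazone (RSG) was compared between 2 kinds of bone marrow-derived cells that carried the same genotype, Pparg+/- LysCre. The data were the 16 arrays, of 32 in the series, whose labels give this genotype. They came from 4 C57Bl/6 mice, and the bone marrow of each mouse was cultured for 9 days with 20 ng/ml M-CSF and 20 ng/ml IL-4 to give alternatively activated macrophages or with 20 ng/ml GM-CSF and 20 ng/ml IL-4 to give immature dendritic cells (iDCs). Each culture received vehicle (DMSO and ethanol) or 1 μM RSG, so the 4 groups (macrophage vehicle, macrophage RSG, iDC vehicle, iDC RSG) held 4 arrays each and each mouse was in all 4 groups. Pparg+/- LysCre cells have a null and an intact Pparg allele and carry a Cre recombinase driven by the lysozyme gene, which is active in myeloid cells. The remaining 16 arrays were of 4 Pparg fl/- LysCre mice in the same groups, in which Cre removes the loxP-flanked allele, and they enter below through the scaling of the arrays and through a comparison of the genotypes. The age of the mice is not given in the sources used here.

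PPARγ is a nuclear receptor for fatty acid derivatives that binds DNA as a dimer with the retinoid X receptor, at a repeated AGGTCA element, and switches on genes of lipid uptake and storage when a ligand such as RSG is bound. IL-4 acts through the transcription factor STAT6 and is known to raise PPARγ activity in macrophages and dendritic cells. M-CSF directs marrow cells to macrophages, and GM-CSF with IL-4 to dendritic cells, which take up and present antigen. A difference between the cell types in the RSG change is an interaction, and it can arise from a change in 1 cell type alone, from changes of unequal size or from changes in opposite directions. Which of these the probes showed is the question here.

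Each array gave a chemiluminescence signal for 33012 probes, and a probe counted as detected at a signal-to-noise ratio of at least 3. Detected probes per array numbered 13830 to 16248. limma was applied to log2 quantile-normalized signal, with the mouse as a block, for 15697 probes, those that 3 or more arrays of some group detected. A probe detected in a single group passed this filter through the group where it was high, so its entry and its difference rest on the same values. A call required an adjusted p (Benjamini-Hochberg) below 0.05 together with a difference of 0.585 or more on the log2 scale, which is 1.5-fold. All values below are log2 signals or differences between them, and a level is never compared between probes. Of the probes tested, 154, for 153 genes, could be given a gene symbol. Pparg, its known target genes, the cell cycle genes and the macrophage and dendritic cell markers that were listed had no named probe among them and were not analysed here, so the cell type labels were not checked against markers. Probes without a symbol are given by the gene model identifier of the array's annotation (mCG numbers) or, where that is a clone, by the probe number.

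RSG changed 1055 of the 15697 probes differently in iDCs and in macrophages (6.72%, limma with Benjamini-Hochberg adjustment). For 608 of them (3.87% of those tested) the RSG change was higher in iDCs, and for 447 (2.85%) it was lower. The called differences had a median size of 1.10. RSG by itself was called for 1407 probes in iDCs (8.96%) and for 435 in macrophages (2.77%). In cultures of this kind, fewer cells of a type and less RNA per cell cannot be told apart. The split between higher and lower depended on the scaling of the arrays. When each array was scaled to its median signal in place of quantile normalization, 1321 probes were higher in iDCs and 252 lower, and the median difference over all probes tested moved from 0.05 to 0.28. The counts also fell with fewer mice: without mouse 1, 2, 3 or 4 the difference was called for 631, 399, 438 and 592 probes, and RSG in macrophages for 250, 205, 242 and 235. By limma on the per-mouse differences, 227 probes were called for the difference between the cell types, 204 of them among the 1055.

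The shift of the median ran beside a change in how many probes were detected. In macrophages, the array of RSG-treated cells had fewer detected probes than that of vehicle-treated cells in each of the 4 mice, with changes of -1185, -668, -1657 and -1603 probes in mice 1 to 4. In iDCs the changes were 1156, 660, 84 and 153. At a signal-to-noise ratio of at least 5 the iDC changes were 1155, 628, -264 and 247, so that mouse 3 turned direction, while at 2 all 4 were above 0, and the macrophage changes were below 0 in 4 of 4 mice at either setting. The difference between the changes at 3 was 1791.5 ± 416.6 probes (SD, n = 4) and had the same sign in 4 of 4 mice (exact two-sided sign-flip test, p = 0.13, the smallest that 4 mice allow). The part of this change in the called differences was not tested. Of the 10571 probes detected on all 16 arrays, 742 were among those called, which is 7.02%, beside 6.72% of all probes tested. These probes were scaled with the rest of their arrays, so nothing about the part of the shift is read from this share.

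**Figure D1:**
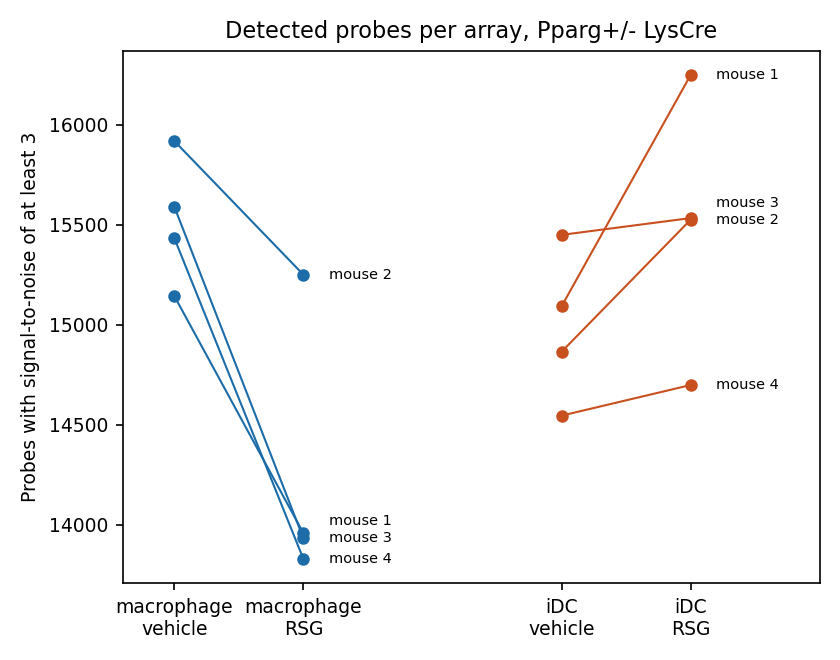
Number of probes with a signal-to-noise ratio of at least 3 on each of the 16 Pparg+/- LysCre arrays, with a line from the vehicle to the RSG array of the same mouse and cell type. All 4 macrophage lines fall and all 4 iDC lines rise. The axis does not start at 0.

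The 1055 probes were divided by the RSG effect in each cell type. For 627 of them RSG was called in iDCs and not in macrophages, and the change in iDCs was the higher in 349 cases and the lower in 278. For 133, RSG was called in macrophages alone, of which 73 had a higher and 60 a lower change in iDCs. RSG was called in both cell types in the same direction, with unequal size, for 40 probes. It was called in both in opposite directions for 16. The remaining 239 passed the test of the difference while RSG by itself passed in neither cell type. A call in 1 cell type and not in the other does not by itself show a difference, and the difference itself was the test that these 1055 passed.

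**Figure D2:**
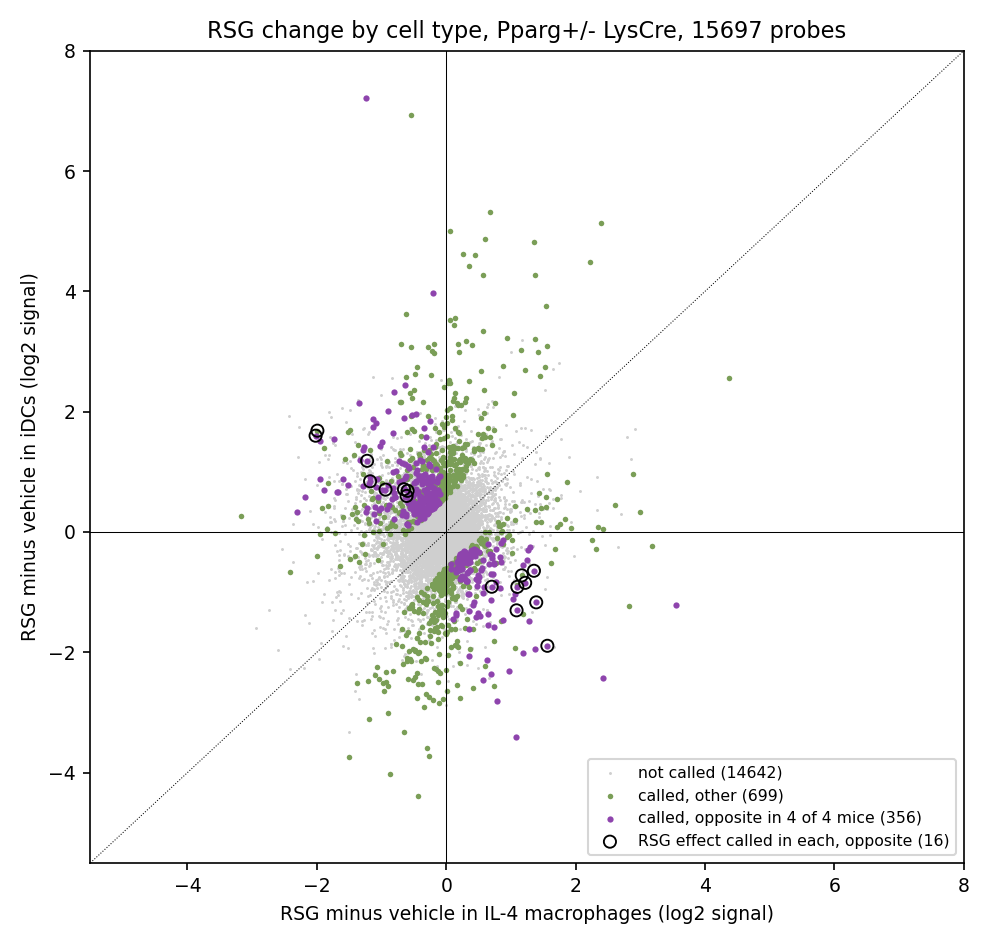
RSG minus vehicle (log2 signal) in IL-4 macrophages on the x axis and in iDCs on the y axis for each of the 15697 probes tested. Grey points were not called for the difference between the cell types, 356 purple points were called and moved in opposite directions in 4 of 4 mice, 699 green points were called otherwise, and 16 rings mark probes whose RSG effect was called in each cell type with opposite signs. The dotted line marks equal changes.

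Opposite movement was read mouse by mouse: a probe counted where RSG was above vehicle in 4 of 4 mice in one cell type and below it in 4 of 4 in the other. Over all probes tested, 795 did so (5.06%), and 356 of these were among the 1055 called, which is 33.7%. The test of the difference and the count of directions use the same arrays, so a higher share among the called probes follows from the way they were chosen. The signal with RSG was above vehicle in iDCs and below it in macrophages for 223 of the 356, and the reverse for 133. Both cell types detected 316 of the 356 (at least 3 arrays of a treatment in each), 198 of the first kind and 118 of the second. Another 26 were not detected in macrophages and 14 not in iDCs, so for those the direction in that cell type is that of a signal near background. Within the 316, the median changes were 0.60 in iDCs and -0.38 in macrophages for the first kind, and -0.56 and 0.37 for the second. The change was the larger in iDCs for 225 of the 316 and in macrophages for 91.

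The 2 directions did not depend on the scaling to the same degree. Under median scaling, 704 probes in all were called and opposite. Of those above, 212 of the 223 probes above vehicle in iDCs and below it in macrophages kept that pattern in 4 of 4 mice, but 45 of the 133 of the reverse kind did. No called probe changed the sign of its difference under median scaling. Without mouse 2 or mouse 3, 190 and 231 probes were called and opposite in the remaining mice. By limma on the per-mouse differences, 92 probes were called and opposite.

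For 16 probes, RSG was called in each cell type and the signs were opposite, 8 in each direction, and 14 of the 16 moved in opposite directions in 4 of 4 mice. None of the 16 has a symbol, and 12 were detected on all 16 arrays. One of them, mCG130827, was detected on 2 of 4 macrophage arrays of each treatment. By the rule above it was thus not detected in macrophages, and its treatments overlapped in both cell types. The differences of the 16 ran from 1.21 to 3.68 in size, and their adjusted p-values for the difference were at most 0.00782 (limma). Of all 151 probes called for RSG in both cell types, these 16 were the ones with opposite signs, and the other 135 moved the same way. Without mouse 2, 1 of the 16 still passed all 3 tests, and without mouse 1, 3 or 4 it was 5, 4 and 4, with 3 mice left in the fit. By limma on the per-mouse differences, 1 of the 16 passed all 3. The probes named from this set were chosen after their values were seen.

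mCG14135.2 had the smallest adjusted p of the 16. Its signal in macrophages was 12.42, 12.38, 11.83 and 11.88 with vehicle and 13.44, 13.24, 13.16 and 13.06 with RSG (mice 1 to 4). In iDCs it was 16.14, 16.10, 16.18 and 16.06 with vehicle and 15.03, 15.46, 15.06 and 15.27 with RSG. The RSG arrays were above all vehicle arrays in macrophages and below all of them in iDCs. The change was 1.10 ± 0.13 in macrophages (SE of the fit, n = 4 mice, adjusted p = 0.00125) and -0.91 ± 0.13 in iDCs (adjusted p = 0.000878), and the difference was -2.01 ± 0.19 (adjusted p = 0.00033, limma).

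mCG9003.2 showed the same pattern. Vehicle-treated macrophages gave 19.60, 18.69, 18.89 and 19.33 and RSG-treated macrophages 20.39, 20.40, 20.01 and 20.06. Vehicle-treated iDCs gave 20.35, 20.39, 20.11 and 20.26 and RSG-treated iDCs 19.63, 18.91, 18.36 and 19.01. Vehicle and RSG arrays were apart in both cell types, and macrophages with RSG stood where iDCs with vehicle did. The difference between the changes was -2.39 ± 0.25 (adjusted p = 0.000599, limma).

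In the other direction, mCG22015.1 rose in iDCs and fell in macrophages. Its iDC signal was 17.13, 16.60, 16.41 and 16.00 with vehicle and 17.78, 18.28, 18.21 and 18.26 with RSG. In macrophages it was 10.07, 11.97, 9.96 and 11.14 with vehicle, and 8.58, 9.24, 7.60 and 9.63 with RSG, where 2 of the 4 arrays detected it. The groups did not overlap in either cell type, and the difference was 3.62 ± 0.59 (adjusted p = 0.00474, limma). mCG7142.3, with the largest difference of the 16 (3.68 ± 0.57, adjusted p = 0.00357, limma), changed in macrophages by -2.44, -1.40, -2.50 and -1.62 in mice 1 to 4, and in iDCs by -0.05, 2.16, 3.05 and 1.58.

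**Figure D3:**
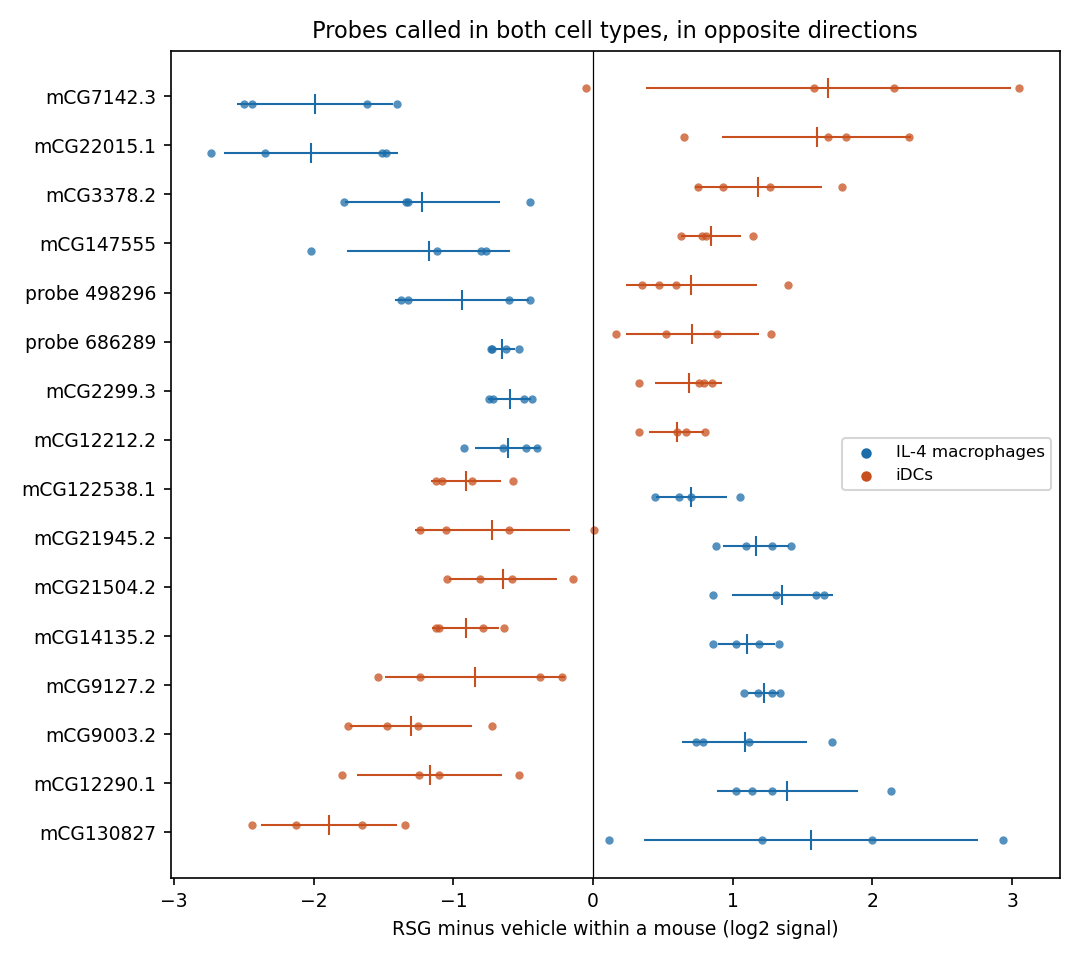
RSG minus vehicle within each mouse (log2 signal, x axis) for the 16 probes called for RSG in both cell types with opposite signs, 1 probe per row. Points are the 4 mice, blue for IL-4 macrophages and orange for iDCs, and the bar gives the mean ± SD. The rows were chosen for changes of opposite sign, so the colors lie apart by that choice, and mouse 1 of mCG7142.3 and mouse 3 of mCG21945.2 lie at about 0 in iDCs.

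Among the 356 opposite probes, 349 have no symbol, and the extremes of these were looked at in each direction. mCG123381.1 stood highest by its fitted difference. RSG-treated iDCs gave 14.20, 13.55, 14.01 and 13.87, against 6.89, 6.28, 7.65 and 5.94 with vehicle, where 1 of the 4 arrays detected it. No macrophage array detected it (6.85, 6.41, 8.05 and 7.58 with vehicle, 6.20, 5.86, 5.69 and 6.17 with RSG), so the macrophage part of its fitted difference (8.46 ± 0.47, adjusted p = 1.55e-05, limma) comes from signals near background. The iDC change was 7.22 ± 0.33 (adjusted p = 9.35e-07), and since most of its vehicle arrays did not detect the probe either, the size of neither value is exact.

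Among the opposite probes, mCG114173 came next by its fitted difference. Its macrophage signal was 19.73, 19.48, 19.81 and 19.50 with vehicle and 19.52, 19.39, 19.30 and 19.47 with RSG. Its iDC signal was 9.70, 7.10, 8.07 and 6.91 with vehicle, where 1 of the 4 arrays detected it, and 12.98, 11.88, 12.77 and 10.04 with RSG. RSG arrays were above all vehicle arrays in iDCs and overlapped with them in macrophages, where the change was -0.21 ± 0.50 (adjusted p = 0.873) against 3.97 ± 0.50 in iDCs (adjusted p = 0.000332). The difference was 4.18 ± 0.71 (adjusted p = 0.00548, limma). Since most of its vehicle iDC arrays did not detect it, the sizes of the iDC change and of the difference are not exact. By the count of mice mCG114173 moved in opposite directions, while only the iDC change passed the test.

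At the other end, mCG4516.2 had the lowest fitted difference, -4.84 ± 0.90 (adjusted p = 0.00874, limma), with -5.0, -7.3, -3.5 and -3.5 in mice 1 to 4. Its rank rests on mouse 2, since mCG133512.1 had -5.7, -4.1, -5.0 and -4.3. In iDCs mCG4516.2 fell in each mouse, from 12.40, 14.77, 14.26 and 14.10 to 8.54, 11.90, 12.82 and 12.57. In macrophages it went from 7.23, 5.98, 8.20 and 9.08, where 2 of 4 arrays detected it, to 8.42, 10.45, 10.27 and 11.04. Levels of the mice spread so widely that vehicle and RSG arrays overlapped in both cell types, although the change within each mouse had 1 sign. mCG133512.1 (difference -4.77 ± 0.67, adjusted p = 0.00205, limma) rose in macrophages, from 7.32, 7.54, 7.80 and 8.86 with vehicle, where 1 of 4 arrays detected it, to 11.96, 11.09, 11.31 and 11.40 with RSG, and in iDCs 1 vehicle array and no RSG array detected it. With the other 3 groups near background, the sizes of its rise and of its difference are not exact. By limma, the macrophage change of mCG4516.2 (2.42 ± 0.64, adjusted p = 0.0599) did not pass by itself. Neither did the iDC change of mCG133512.1 (-1.22 ± 0.47, adjusted p = 0.11).

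Of the 154 named probes, 14 were called for the difference (9.09%, beside 6.72% of all probes tested), 12 with a higher RSG change in iDCs and 2 with a lower one. By the count of mice, 7 of the 14 moved in opposite directions, beside 356 of all 1055 called (33.7%), and nothing particular to the named genes is read from so few: Acyp2, Mt3, Trmt61a, Sowahc and Zfp945 were above vehicle in iDCs and below it in macrophages, and Ghdc and Wnk4 the reverse. None of the 7 had an RSG effect that was called in each cell type. All but Zfp945 were detected in both cell types. Of the 14, Tceal9 alone stayed called whichever mouse was left out. Ghdc, Nol12, Sfrp4, Sowahc, Wnk4 and Zfp945 lost the call without any of the 4 mice, Acyp2 without mouse 3 or 4, Eraf without mouse 4, Lhx2 without mouse 3, Mt3 without mouse 1, 2 or 4, and Rtl6, Tmem251 and Trmt61a without mouse 1, 2 or 3.

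**Figure D4:**
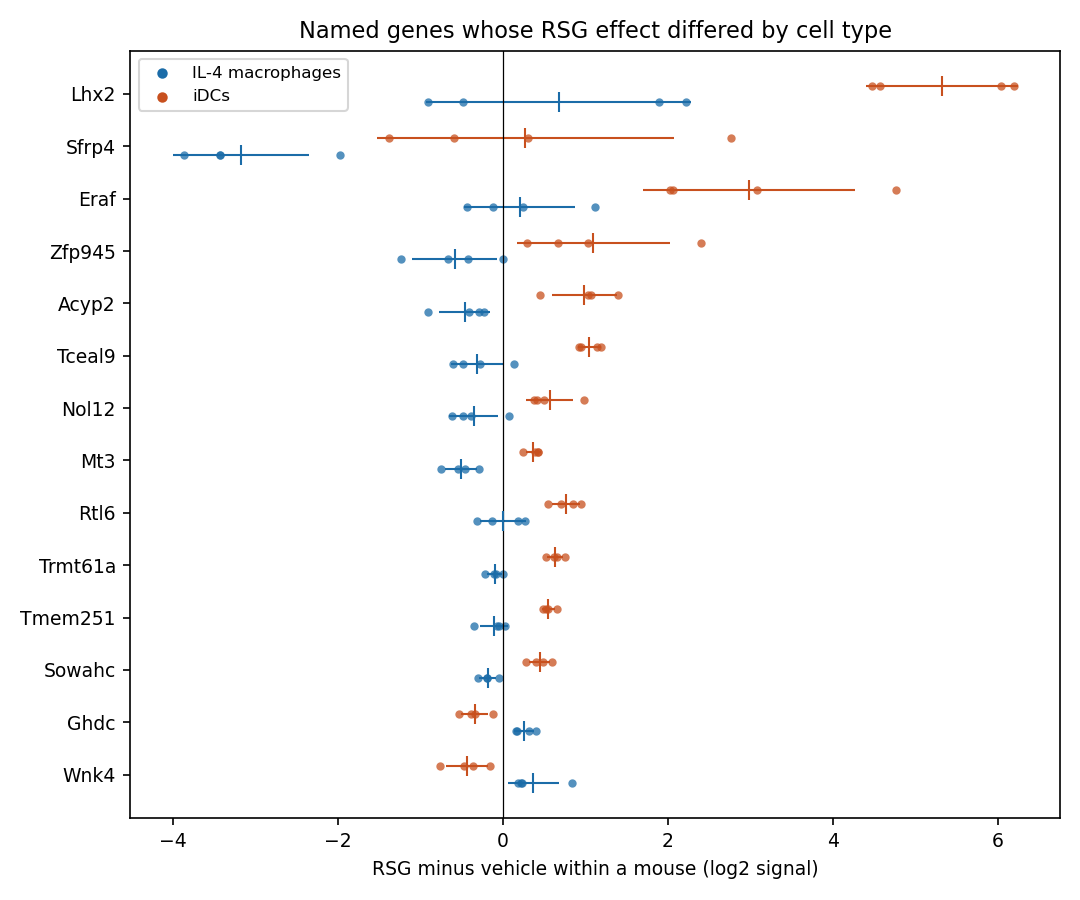
RSG minus vehicle within each mouse (log2 signal, x axis) for the 14 named genes whose RSG change differed between the cell types, ordered by the difference. Points are the 4 mice, blue for IL-4 macrophages and orange for iDCs, with mean ± SD. Lhx2 and Eraf moved in iDCs, Sfrp4 in macrophages, and the 2 lowest rows, Ghdc and Wnk4, have the cell types in the reverse order.

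The promoters of the opposite genes Acyp2, Mt3 and Ghdc, and the first of the overlapping pair of Tmem251, are shown as examples of a search for PPARγ-type and STAT-type elements. Whether the direction of the RSG change goes with such an element near a start site was not tested. Each sequence is 300 bases of RefSeq (GRCm38.p6), from 250 before to 50 after a start site that the promoter table uses, which for Acyp2 and Ghdc lies inside the span of the gene given below, 5′ to 3′ on the strand of the gene, and capitals mark the letters of a motif where it was found.
Acyp2, chr11:30649347-30649646, minus strand: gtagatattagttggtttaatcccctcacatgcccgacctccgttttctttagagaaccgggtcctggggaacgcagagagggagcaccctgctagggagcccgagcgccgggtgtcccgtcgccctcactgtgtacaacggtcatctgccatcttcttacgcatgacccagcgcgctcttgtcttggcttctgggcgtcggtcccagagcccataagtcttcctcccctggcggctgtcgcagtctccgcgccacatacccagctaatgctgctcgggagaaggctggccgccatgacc
Mt3, chr8:94152357-94152656, plus strand: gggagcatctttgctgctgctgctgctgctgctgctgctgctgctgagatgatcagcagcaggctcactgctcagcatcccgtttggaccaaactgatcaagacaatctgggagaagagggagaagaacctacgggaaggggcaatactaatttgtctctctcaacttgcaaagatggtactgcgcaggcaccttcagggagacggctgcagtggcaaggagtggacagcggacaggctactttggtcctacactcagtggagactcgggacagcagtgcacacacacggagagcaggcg
Ghdc, chr11:100770908-100771207, minus strand: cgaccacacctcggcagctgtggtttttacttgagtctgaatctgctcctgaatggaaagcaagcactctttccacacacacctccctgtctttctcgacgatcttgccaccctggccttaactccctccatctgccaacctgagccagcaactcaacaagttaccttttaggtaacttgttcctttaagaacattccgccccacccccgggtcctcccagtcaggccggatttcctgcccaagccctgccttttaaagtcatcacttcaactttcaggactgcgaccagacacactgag
Tmem251, chr12:102743469-102743768, plus strand: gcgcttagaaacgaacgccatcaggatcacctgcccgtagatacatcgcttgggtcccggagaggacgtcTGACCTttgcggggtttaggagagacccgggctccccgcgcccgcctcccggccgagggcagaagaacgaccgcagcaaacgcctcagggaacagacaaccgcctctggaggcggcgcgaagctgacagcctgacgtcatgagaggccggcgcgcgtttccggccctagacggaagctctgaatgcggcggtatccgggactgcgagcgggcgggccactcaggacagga

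AGGTCA, the element that nuclear receptors bind, its repeat with 1 base between the copies (AGGTCANAGGTCA) and a STAT-type palindrome (TTCNNNNGAA) were searched on both strands, and each match of the repeat also counts as AGGTCA. Of the 14 genes, 12 had a promoter in the table, and AGGTCA was found for 2 of the 12, Nol12 and Tmem251, against 16.3% of all 32851 promoters in the table. Neither the repeat (0.0396% of all promoters) nor the palindrome (6.95%) was found for any of the 12. The match in Tmem251, in capitals above, is on the reverse strand. These are matches of letters in a short window and say nothing about binding there or elsewhere.

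Acyp2 (acylphosphatase 2, chr11:30505992-30649608 on GRCm38.p6), which hydrolyzes acyl phosphates, showed the largest difference among the opposite named genes that both cell types detected. In iDCs it gave 9.91, 10.51, 10.40 and 10.69 with vehicle and 11.31, 10.96, 11.44 and 11.75 with RSG. In macrophages it gave 13.18, 13.42, 12.89 and 13.15 with vehicle and 12.89, 12.50, 12.65 and 12.74 with RSG. The RSG arrays were above all vehicle arrays in iDCs, and in macrophages the groups met at 12.89. The change was 0.99 ± 0.19 in iDCs (adjusted p = 0.00449) and -0.46 ± 0.19 in macrophages, which did not pass (adjusted p = 0.211). The difference was 1.45 ± 0.26 (adjusted p = 0.0078, limma), and it had the same sign in 4 of 4 mice.

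Mt3 (chr8:94152607-94154148), a metallothionein that binds zinc and copper, moved by less. Its iDC signal was 10.93, 11.00, 10.83 and 10.83 with vehicle and 11.32, 11.24, 11.26 and 11.25 with RSG, and its macrophage signal was 11.86, 12.48, 11.51 and 12.09 with vehicle and 11.41, 11.72, 11.22 and 11.55 with RSG. The iDC groups did not overlap, whereas the macrophage groups did. Neither change passed by itself (0.37 ± 0.13, adjusted p = 0.0838, in iDCs and -0.51 ± 0.13, adjusted p = 0.0569, in macrophages), but their difference of 0.88 ± 0.19 did (adjusted p = 0.0165, limma).

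Trmt61a (chr12:111678105-111683902), the catalytic subunit of a tRNA methyltransferase, rose in iDCs from 11.63, 11.95, 11.96 and 11.84 to 12.38, 12.56, 12.61 and 12.36. In macrophages it stayed between 12.98 and 13.36 on all 8 arrays. The difference was 0.74 ± 0.14 (adjusted p = 0.00954, limma). The macrophage change was below 0 in 4 of 4 mice, but that of mouse 4 was -0.00052 and the mean of -0.10 ± 0.10 did not pass (adjusted p = 0.648). Sowahc (chr10:59221922-59226434), an ankyrin repeat protein, gave 13.00, 13.22, 13.14 and 13.32 with vehicle and 13.49, 13.51, 13.73 and 13.72 with RSG in iDCs, which did not overlap. Its macrophage signals overlapped, and the changes there were -0.31, -0.05, -0.20 and -0.19. Its difference of 0.63 ± 0.17 was the closest to the 1.5-fold threshold among the genes with a higher change in iDCs (adjusted p = 0.0422, limma). Zfp945 (chr17:22846697-22867309), a zinc finger gene, was detected on 4 of 4 RSG iDC arrays, on 1 vehicle iDC array and on no macrophage array, so its opposite pattern rests on macrophage signals near background (difference 1.68 ± 0.46, adjusted p = 0.0466, limma). The difference was 3.65 in mouse 4 and 0.95 to 1.09 in the others, and without mouse 4 it was 1.03 (adjusted p = 0.151).

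Ghdc (chr11:100766026-100770973), a protein with a GH3 domain, had the reverse pattern. Its macrophage signal went from 11.60, 11.46, 11.58 and 11.60 to 11.76, 11.86, 11.89 and 11.76, and its iDC signal went from 11.78, 11.80, 11.74 and 11.54 to 11.39, 11.27, 11.61 and 11.21. The macrophage groups did not overlap and the iDC groups did. The changes were small, 0.26 ± 0.09 in macrophages and -0.35 ± 0.09 in iDCs, and the difference of -0.60 ± 0.12 just passed the fold threshold (adjusted p = 0.0125, limma). Wnk4 (chr11:101260537-101277409), a kinase that regulates ion cotransporters, went from 11.90, 11.94, 11.89 and 12.01 to 11.74, 11.17, 11.53 and 11.54 in iDCs and from 11.45, 11.71, 11.59 and 11.20 to 11.69, 11.89, 11.81 and 12.03 in macrophages. Its difference was -0.81 ± 0.20 (adjusted p = 0.0317, limma). Under median scaling both differences kept their sign and lost the call, at -0.31 for Ghdc (adjusted p = 0.277) and -0.52 for Wnk4 (adjusted p = 0.159).

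The other 7 named genes did not move in opposite directions in every mouse. The largest named difference was that of Lhx2 (chr2:38339271-38369737), a LIM homeobox transcription factor of development. RSG-treated iDCs gave 11.42, 11.74, 12.43 and 11.64, and vehicle-treated iDCs 5.38, 7.27, 6.23 and 7.07, on none of which it was detected. The measured rise in iDCs was 5.32 ± 0.60 (adjusted p = 0.000152, limma). With each vehicle array set to the higher of its own signal and the lowest detected signal of any probe, the rise was 30.7-fold. That floor is not the detection limit of the Lhx2 probe, so the size of the rise is not exact. In macrophages 1 of 8 arrays detected it, that of mouse 4 with RSG at 9.28. The difference between the measured changes was 4.64 ± 0.84 (adjusted p = 0.00787, limma). In mice 1 to 4 it was 4.14, 5.39, 6.68 and 2.36, and over 17 alternatives of processing and mice it ran from 3.81 to 5.40.

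Eraf, the alpha hemoglobin stabilizing protein of erythroid cells, was detected on 4 of 4 RSG-treated iDC arrays, at 9.56, 9.33, 10.41 and 9.81, and on 1 of 4 vehicle arrays (7.53, 7.27, 5.64 and 6.72). No macrophage array detected it. Its difference was 2.79 ± 0.56 (adjusted p = 0.0123, limma), a size that is not exact, with signals near background outside the RSG-treated iDCs. It was 3.40 without mouse 2 (adjusted p = 0.0374), 2.09 without mouse 3 (adjusted p = 0.0483) and 2.54 without mouse 4 (adjusted p = 0.101), and on the scan days alone it was 1.36 and 4.21 (adjusted p = 0.21 and 0.122). Hba-a1, an alpha globin gene and the only other erythroid gene with a named probe, was not detected on any macrophage array, was detected on 3 vehicle and 2 RSG iDC arrays, and changed by -0.83 ± 0.39 in iDCs (adjusted p = 0.187). The part of erythroid cells in the Eraf values was not tested.

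Sfrp4 (chr13:19623175-19632825), a secreted antagonist of Wnt signaling, fell in macrophages. Vehicle-treated macrophages gave 12.55, 11.64, 10.08 and 10.60 and RSG-treated macrophages 8.68, 8.20, 8.11 and 7.17, on none of which it was detected. The measured change was -3.18 ± 0.61 (adjusted p = 0.0146, limma), which is 9.06-fold. The floor used for Lhx2 left this value as it was, since its own RSG signals were higher. Those signals were not detected, so the size of the fall is not exact. In iDCs 1 of 8 arrays detected it, that of mouse 1 with RSG at 9.63. The difference was 3.45 ± 0.86 (adjusted p = 0.0317), and without mouse 1, 2, 3 or 4 it was 2.39, 3.92, 4.14 and 3.36 (adjusted p = 0.137, 0.0686, 0.0787 and 0.144).

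Tceal9 (chrX:136245080-136247139), of the family of transcription elongation factor A like proteins, had the smallest adjusted p of the named genes. In iDCs it rose from 14.51, 14.40, 14.33 and 14.40 to 15.65, 15.35, 15.52 and 15.32. In macrophages it was brighter and changed from 18.55, 18.09, 18.42 and 18.00 to 18.06, 17.81, 17.81 and 18.14, down in 3 of 4 mice. The difference was 1.36 ± 0.16 (adjusted p = 0.000864, limma). Tmem251 (chr12:102743719-102745406), needed to send enzymes to lysosomes, changed in iDCs by 0.48 to 0.66 in each mouse, a mean of 0.55 that was under the fold threshold (adjusted p = 0.00124). Its treatments overlapped in macrophages, with a difference of 0.66 ± 0.12 (adjusted p = 0.00753). Rtl6 (chr15:84553398-84557823), a gene derived from a retrotransposon, rose in iDCs by 0.76 ± 0.11 and changed by 0.00 ± 0.11 in macrophages (difference adjusted p = 0.0118). Nol12 (chr15:78934933-78941910), a nucleolar protein of ribosomal RNA processing, had a difference of 0.92 ± 0.24 (adjusted p = 0.0393), and its treatments overlapped in both cell types.

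The gene lists had few named probes. Of 35 genes of alternative activation and the IL-4 response only Ear1 had one, and RSG raised this eosinophil-associated ribonuclease in both cell types, by 2.81 ± 0.21 in iDCs (adjusted p = 1.28e-05) and by 1.75 ± 0.21 in macrophages (adjusted p = 0.00127). The rise was larger in iDCs in 4 of 4 mice, and the difference of 1.06 ± 0.30 did not pass (adjusted p = 0.0522, limma). Of 55 inflammatory genes, Nlrp3, Tlr7 and Tnfsf13 had a probe, and none was called for the difference (median -0.37, beside 0.05 over all probes tested). Tnfsf13, a ligand that sustains B cells, rose in macrophages by 0.62 ± 0.11 (adjusted p = 0.0101) and changed by 0.24 ± 0.11 in iDCs (adjusted p = 0.164), with a difference of -0.37 ± 0.15 (adjusted p = 0.166). Tlr7, a receptor for single-stranded RNA, had a difference of the other sign, 0.48 ± 0.22 (adjusted p = 0.21), above 0 in 4 of 4 mice. Nlrp3, the sensor of an inflammasome, was detected on no vehicle and 2 RSG macrophage arrays, and its difference was -1.19 ± 0.68 (adjusted p = 0.318).

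Of 42 antigen presentation genes H2-Q7 and H2-Q8 had a probe, with differences of 0.30 ± 0.15 (adjusted p = 0.238) and -0.24 ± 0.35 (adjusted p = 0.722), and no macrophage array detected H2-Q8. Sgms2, a sphingomyelin synthase and the only named gene of 40 for cholesterol and sphingolipid metabolism, changed by 0.23 ± 0.09 in iDCs and 0.33 ± 0.09 in macrophages, neither of which passed, and its difference was -0.10 ± 0.12 (adjusted p = 0.666, limma). Of 20 heme and erythroid genes Eraf and Hba-a1 had a probe, as given above. The lists of 52 PPARγ target genes and 47 cell cycle genes had none.

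Epdr1, an ependymin-related glycoprotein, had opposite changes in 4 of 4 mice without passing the test. The macrophage change was -1.34 ± 0.45 (adjusted p = 0.13), with no overlap of the groups, and in iDCs, where 3 of 8 arrays detected it, the change was 2.73 in mouse 1 and 0.19 to 0.35 in the others. The difference was 2.22 ± 0.63 (adjusted p = 0.0528, limma). Gask1b, a Golgi kinase-like protein, and Ramp3, a partner of calcitonin-type receptors, fell in iDCs (changes of -1.41 and -0.92, adjusted p = 0.0227 and 0.0119), and their differences did not pass (-0.77, adjusted p = 0.401, and -0.52, adjusted p = 0.315). Gask1b fell in 3 of 4 mice, changed by 0.13 in mouse 1 and overlapped between the treatments in iDCs, and its difference was 0.34 on scan day 1 alone. 5830415G21Rik fell in both cell types, with changes of -1.46 in iDCs and -0.76 in macrophages and a difference of -0.70 ± 0.24 (adjusted p = 0.0945). Paqr3 and Zbtb18 had differences of -0.19 ± 0.32 (adjusted p = 0.771) and 0.26 ± 0.15 (adjusted p = 0.304).

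The same difference was then measured in the Pparg fl/- LysCre cells, whose arrays entered the choice of the 1055 probes through the scaling alone. With quantile normalization over the 16 Pparg+/- arrays, 1060 probes were called and 1047 of the 1055 were among them. In the Pparg fl/- LysCre cells 6 probes were called (0.0382%, 4 higher and 2 lower in iDCs), all 6 called in the same direction in the Pparg+/- cells. There, 1060 had an unadjusted p under 0.05. Of the 1055 probes, 865 had the same sign in the Pparg fl/- cells, which is 82.0%, beside 61.0% of all probes tested. The probes higher in iDCs had a median difference of 0.37 there, beside 1.11 in Pparg+/- cells, and those lower had -0.33 beside -1.09. All probes tested had 0.02 and 0.05. Since the probes were chosen for their size in Pparg+/- cells, a smaller value in other mice is in part a result of that choice. Of the 356 opposite probes, 35 moved in the same opposite directions in 4 of 4 Pparg fl/- mice, where 232 of the 15697 tested did in either direction.

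The test of the difference between the genotypes itself called no probe of 15697 (0%, limma on all 32 arrays with the mouse as a block), with 1319 at an unadjusted p under 0.05. Without mouse 5 of the Pparg fl/- group the count was 63, and without mouse 1 of the Pparg+/- group it was 2. In the Pparg fl/- cells alone the 6 calls became 0 without any of mice 5 to 8. Among the named genes, Lhx2 had a difference between the cell types of 1.16 in Pparg fl/- cells (difference between genotypes 3.48, adjusted p = 0.404), Sfrp4 one of -0.90 (4.35, adjusted p = 0.296), Eraf one of -0.93 (3.72, adjusted p = 0.419) and Acyp2 one of 0.62 (0.83, adjusted p = 0.599). None of these 4 is shown to differ between the genotypes.

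**Figure D5:**
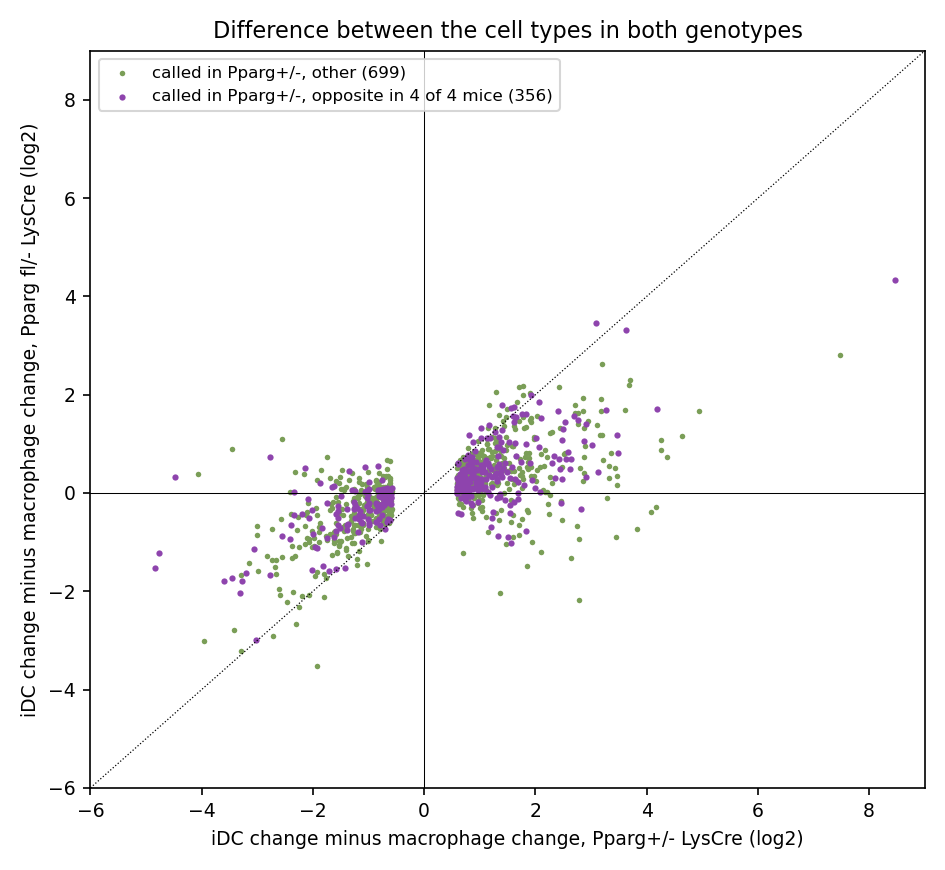
Difference between the cell types in the RSG change (iDC minus macrophage, log2) of the 1055 called probes in Pparg+/- LysCre cells on the x axis and in Pparg fl/- LysCre cells on the y axis. Purple points are the 356 probes that moved in opposite directions in 4 of 4 Pparg+/- mice and green points the other 699. The dotted line marks equal differences, and 865 points have the same sign on both axes.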

How the data were processed

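Bone marrow-derived cells of 8 mice were profiled on 32 single-color chemiluminescence arrays, of which the 16 of Pparg+/- LysCre mice are the subject here. The authors deposited for each array the background-corrected signal intensity per probe and its signal-to-noise ratio, a score from the scanner output. Where that ratio was 1 or less (36.9% to 43.4% of the probes of an array), the listed signal was nearly always its own standard deviation, which is noise. A series table of linear ratios, 1 column per array, was deposited too, with column medians of 0.951 to 1.06, whose exact centring stays unknown. Scanner software versions are not given in the sources used here.

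Signals were taken as log2 and quantile normalized over the 32 arrays, without 4830 control spots per array. limma 3.58.1 in R 4.3.3 was fitted to the 16 arrays with a mean per group and the mouse as a block (residual df 9), and to the Pparg fl/- and to all 32 arrays in the same way. The fit was tested on simulated data. The labels give the mouse of each array. Deviations from the group means correlated weakly at most between same-mouse arrays of a cell type (median r 0.07, range 0.01 to 0.45). The median was 0.08 for the same mouse across cell types and -0.03 for other mice in other groups. Pairing followed the labels, and without a replicate block 964 probes were called for the difference. Mice 1 and 2 were scanned on 1 day and mice 3 and 4 on another, so the block holds the day. Arrays of a group correlated at 0.964 to 0.982, and none was taken for a repeat. The number of arrays limits the precision, and the labels do not say whether a culture was repeated within a mouse.

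Symbols came for 317 probes from a RefSeq table and for 8 from the supplementary tables, by identifier. Named genes were those called for the difference, genes of 7 lists and the genes the series' other comparisons turn on, and, without a symbol, the 2 highest and 2 lowest opposite probes. The members and lists were chosen with earlier results of these data known. The alternatives were other scalings, filters, thresholds, sets of arrays, pairing, each scan day alone and leaving out each mouse, and the methods' t-test. The count of opposite probes detected in both cell types was added after seeing the data. P-values of the fits with a block measure the spread left after group means and mouse levels are taken out, pooled over cell types and treatments. The spread of the paired difference between these 4 mice was used only by limma on the per-mouse differences, which called 227 probes.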

Additional observations from a re-analysis of the deposited data

Results flagged for a closer look

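The RSG change differed between iDCs and macrophages by the test of the difference itself for 1055 probes, among them 14 named ones. Their differences (iDC minus macrophage, log2) were 4.64 for Lhx2, 3.45 for Sfrp4, 2.79 for Eraf, 1.68 for Zfp945, 1.45 for Acyp2, 1.36 for Tceal9, 0.92 for Nol12, 0.88 for Mt3, 0.76 for Rtl6, 0.74 for Trmt61a, 0.66 for Tmem251, 0.63 for Sowahc, -0.60 for Ghdc and -0.81 for Wnk4.

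A value far from the other 3 of its group was found in 3 of 72 groups of 4 that were searched by Dixon's test, and chance alone gives about 1 in 20 groups. Mouse 4 had a Wnk4 change of 0.83 in macrophages, where the others lay between 0.18 and 0.24. Mouse 1 had a change of 0.33 in iDCs for mCG2299.3, where the others lay between 0.76 and 0.85. The RSG-treated macrophage array of mouse 2 had 15250 detected probes, where the others had 13830 to 13959. Without mouse 2, 399 probes were called for the difference and 190 of them were opposite.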

How the results depend on the processing

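Thresholds, filters, blocks and per-mouse fits leave the size of a difference as it is, so only other scalings, the offset, single scan days and leaving out a mouse could turn its sign, and under these none of the 1055 called probes changed sign. The number of calls was not stable. For the difference between the cell types (1055 calls), 601 passed a 2-fold threshold, 520 a fit to all 32 arrays with no replicate block, 466 a test with no detection filter, 227 limma on the per-mouse differences, 1585 the authors' ratios, 707 the methods' t-test with Benjamini-Hochberg adjustment and 1775 without it. Within scan day 1 and scan day 2 alone, with 2 mice each, 2 and 0 were called (2439 and 2241 at an unadjusted p under 0.05). With the mouse left out of the fit to the 16 arrays (no replicate block) it was 964. Leaving out each mouse gave 399 (without mouse 2) to 631, of which 373 to 555 were among the 1055.

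For RSG in macrophages (435), the counts were 692 with no fold threshold, 233 at 2-fold, 243 for all 32 arrays with no replicate block, 246 with no filter, 227 for per-mouse differences, 0 on each scan day alone (2125 and 1616 at an unadjusted p under 0.05) and 205 to 250 without a mouse. For RSG in iDCs (1407), they were 2670 with no fold threshold, 731 at 2-fold and 256 and 421 on the scan days. For opposite probes (356), they were 197 at 2-fold, 196 for all 32 arrays with no replicate block, 704 under median scaling, 707 with the authors' ratios, 195 with no filter, 92 for per-mouse differences, 2 and 0 on the scan days and 190 to 294 without a mouse. In the Pparg fl/- cells (6), 1 was called with no replicate block, 0 under median scaling and 0 without each of mice 5 to 8. For the difference between genotypes (0), 1 was called with no replicate block and 0 to 63 without a mouse, 63 being without mouse 5 and 2 without mouse 1. The causes were not tested.

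For probes called in each cell type with opposite signs (16), the counts were 46 with no fold threshold, 6 at 2-fold, 7 for all 32 arrays with no replicate block, 32 under median scaling, 33 with the authors' ratios, 3 with no filter, 3 for per-mouse differences (1 of the 16), 0 on each scan day and 2 to 12 without a mouse.

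Among the 14 named genes, Tceal9 kept its call in 15 of 18 alternatives, Acyp2 in 14 of 18 and Lhx2 in 13 of 17, and Zfp945 (5 of 17), Nol12 (6 of 17), Sowahc (7 of 18), Ghdc and Wnk4 (8 of 18 each) in fewer. Ear1, not called, passed in 5 alternatives, under median scaling, the authors' ratios, the stricter filter, detection on all 16 arrays and the offset (adjusted p 0.0225 to 0.0467). Epdr1, not called, passed in 7, with no replicate block, in both fits to all 32 arrays, under median scaling, the authors' ratios, the stricter filter and the offset (adjusted p 0.0276 to 0.0443). Signals near background limit the sizes given for Lhx2, Eraf, Sfrp4 and Zfp945 in both cell types. Lhx2, Eraf and Zfp945 were detected on most arrays only in RSG-treated iDCs, and Sfrp4 only in vehicle-treated macrophages. They passed the detection filter through that group alone, so their entry into the test and their differences are not independent. The same holds for mCG123381.1 through RSG-treated iDCs and for mCG133512.1 through RSG-treated macrophages.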
